A study of Rattus norvegicus with 10 samples.

Results

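The voltage-gated sodium, calcium and HCN channel genes were followed in the prefrontal cortex (PFC) of rats 24 h after the start of acute footshock (FS) stress. Members were the genes with a probe set whose only symbol in the platform annotation starts with Scn and a digit, with Cacna or Cacnb, or with Hcn and a digit. Scn4b was left out by this rule. It found 30 probe sets of 29 genes, among 18644 probe sets with exactly 1 symbol. Scn3a alone had several probe sets of its own, and the one with the highest mean over the 10 arrays was taken. All 29 genes had a mean above 4 on the log2 scale, the limit used for testing, and stand among 18304 probe sets of 16941 genes that passed it. The probe sets annotated to Scn2a with Scn3a, to Scn9a with Scn3a and to Scn7a with Rps3l1 carry several symbols and were not assigned to a gene.

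The rats were adult male Sprague–Dawley animals. The 5 FS rats (labelled Stress) received a 40 min session at 0.8 mA with 20 min of actual shock, went back to the home cage and were killed 24 h after the start of the session. The 5 controls stayed undisturbed in their home cages. Rats shared a cage with a mate, and the labels do not say which rats were mates. The labels give 1 array per rat, of total RNA from dissected PFC. The rats killed at earlier times are not analysed here. All values are log2 RMA values, that is, background-corrected, quantile-normalized signals of a probe set, and all differences are FS minus control on that scale. A level depends on the probes as well as on the RNA, so levels of different genes were not ranked against each other. The number of arrays limits the precision, and in bulk tissue fewer cells of a type and less RNA per cell cannot be told apart.

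Voltage-gated channels open when the membrane potential changes. Sodium channels carry the upstroke of the action potential, calcium channels turn electrical activity into calcium entry for transmitter release, dendritic signalling and gene control, and HCN channels open on hyperpolarization and set resting potential and dendritic integration in cortical pyramidal cells. A sodium or calcium channel has 1 pore-forming alpha subunit, named by Scn genes ending in a or by Cacna1 genes. Accessory subunits adjust its trafficking and gating, namely the sodium beta subunits (Scn genes ending in b), the calcium alpha2delta subunits (Cacna2d) and the cytoplasmic calcium beta subunits (Cacnb).

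The arrays resembled each other closely, with correlations between 0.994 and 0.997. Cortical and other neuronal markers were present, among them Slc17a7 (12.29 in FS rats, 12.25 in controls), Tbr1 (11.24 and 11.20) and Gad1 (10.30 and 10.34). Of 16 markers of striatal medium spiny neurons, 0 passed an adjusted p of 0.05, and their centred mean lay between -0.48 and 0.19 in FS rats and between -0.45 and 0.46 in controls, so it varied widely within each group. The mean of 6 choroid plexus markers (Ttr, Clic6, Kl, Folr1, Kcnj13 and Otx2) was 2.29 in FS replicate 2, against -0.48 to 0.20 in the other 9 rats. The ependymal genes of that list, Foxj1 and Ccdc153, were not among those tested. The mean of 8 meningeal fibroblast markers was 0.84 in FS replicate 2, against -0.45 to 0.17. The same rat had the lowest mean of 10 cortical excitatory neuron markers (-0.10, against -0.066 to 0.051 in the others). Subfamily medians that moved by over 1.5 times without FS replicate 2, and single genes in which that rat set most of the difference, are given with and without it.

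In the PFC of FS rats, the channel genes lay close to their control levels. In limma over 18304 probe sets with Benjamini–Hochberg adjustment, 0 of 29 genes passed an adjusted p of 0.05, as did 0% of all probe sets. The smallest adjusted p was 0.350. The differences ran from -0.11 to 0.20, and 12 were positive and 17 negative, with a median of -0.012, beside a median of 0.00044 over all probe sets. Leaving out each rat in turn gave medians from -0.028 (without control replicate 5) to 0.0016 (without control replicate 4), so that its sign depends on single rats. At an unadjusted p under 0.05, 1 gene was higher, Scn10a, where 5.75% of all probe sets were, and 1 was lower, Cacna1g, where 4.09% were. These shares of the 29 genes are near the background. In exact permutation tests over the rats, 1 gene was higher and 0 were lower at that threshold, where 4.8% and 4.29% of all probe sets were.

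Single rats moved these counts. Without control replicate 5, 5 genes were higher (Scn10a, Cacna2d4, Scn4a, Cacna1f and Scn11a) and 3 lower (Cacnb1, Scn3a and Cacna1c), while the shares over all probe sets were 8.97% and 5.18%. Without FS replicate 2, 3 were higher and 0 lower, where 5.23% and 3.93% of all probe sets were. Without control replicate 4, 2 were higher and 0 lower (4.52% and 3.15% of all). Without FS replicate 4 the count of lower genes was 2 (3% of all), and without FS replicate 1, control replicate 1 or control replicate 3 it was 0 (4.05%, 3.52% and 4.77% of all). Over all of these the adjusted p of each member stayed at 0.142 or higher in limma.

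**Figure D1:**
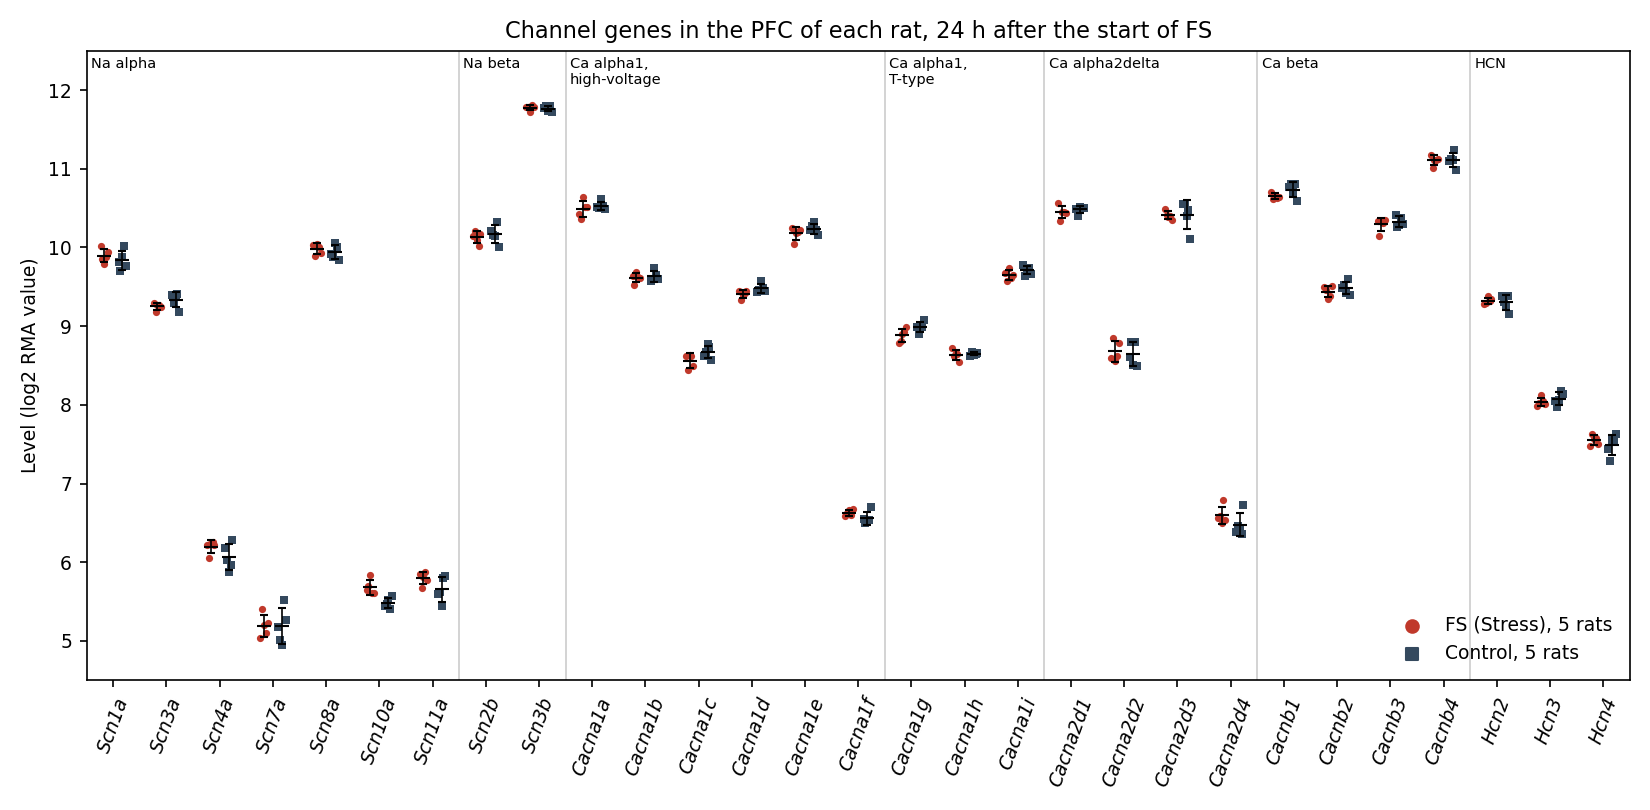
Level of each channel gene in each rat (log2 RMA value, vertical axis), grouped by subfamily along the horizontal axis, with FS rats as circles on the left and controls as squares on the right of each gene. Bars are the mean ± SD of 5 rats. In 28 of 29 genes the FS and control rats overlap, and in Scn10a the 5 FS rats lie above the 5 controls.

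Of the 7 sodium channel alpha subunits, 6 had a positive difference, with a median of 0.061. Among these 6, Scn4a, Scn7a, Scn10a and Scn11a lie at levels of 4 to 7, where 67.25% of all probe sets had a positive difference. Scn7a turned negative after quantile normalization and when any of 3 single rats was left out. The median of the 7 genes was 0.031 without control replicate 2 and 0.11 without control replicate 4. The genes best known from the brain lay near 0 in both directions. Scn1a, the alpha subunit on which fast-spiking interneurons depend, was at 10.02, 9.85, 9.79, 9.87 and 9.95 in FS replicates 1 to 5, against 9.82, 9.70, 9.88, 10.01 and 9.77 in the controls. The groups overlapped, with a difference of 0.061 (standard error 0.061, adjusted p = 0.764 in limma). Scn8a, concentrated at axon initial segments and nodes of Ranvier, was at 10.03, 9.89, 10.05, 10.01 and 9.94 in FS rats, against 9.91, 9.88, 10.05, 10.001 and 9.84 in controls. Here too the groups overlapped, and the difference was 0.044 (adjusted p = 0.798 in limma). Scn3a, which is most abundant in the developing brain, was at 9.29, 9.18, 9.27, 9.27 and 9.25 in FS rats, against 9.40, 9.29, 9.40, 9.41 and 9.18 in controls. In 3 controls it lay above every FS rat, whereas control replicate 5 was at the level of FS replicate 2, the lowest FS rat. The difference was -0.084 (standard error 0.049, adjusted p = 0.583 in limma), and the other probe set of Scn3a gave -0.051.

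The alpha subunits known from sensory neurons, muscle and sodium-sensing cells had signals between 4 and 7, and 3 of these 4 genes had a difference above 0.1. Scn10a, which carries tetrodotoxin-resistant current in nociceptors, was at 5.65, 5.70, 5.84, 5.61 and 5.61 in FS rats, against 5.44, 5.47, 5.52, 5.41 and 5.57 in controls. It was the only member whose groups did not overlap in the higher direction, which 0.972% of all probe sets did, and 0 members did so in the lower direction, where the share was also 0.972%. These shares cover all levels and were not computed for levels of 4 to 7 alone. At those levels 10.9% of all probe sets were higher at an unadjusted p under 0.05 in limma. Scn10a lay below the median of every array (7.32 or higher), and whether its signal exceeds array background was not tested. Its difference was 0.20 (standard error 0.051, 95% interval 0.088 to 0.31, adjusted p = 0.350 in limma, exact permutation p = 0.00794, two-sided, the smallest that 5 rats against 5 allow). Over all alternatives it stayed between 0.16 and 0.22, with adjusted p-values from 0.142 to 0.566. Scn11a, another nociceptor channel, was at 5.85, 5.67, 5.81, 5.87 and 5.78 in FS rats, against 5.59, 5.62, 5.44, 5.80 and 5.83 in controls. Control replicates 4 and 5 reached the FS range, and the difference was 0.14 (standard error 0.071, adjusted p = 0.535 in limma). Scn4a, the skeletal muscle channel, was at 6.22, 6.06, 6.25, 6.25 and 6.22 in FS rats, against 6.18, 6.02, 5.88, 5.97 and 6.29 in controls. The highest rat was a control, replicate 5, and the difference was 0.13 (standard error 0.072, adjusted p = 0.560 in limma). The mean of 8 skeletal and cardiac muscle markers lay between -0.012 and 0.12 in FS rats and between -0.083 and -0.0054 in controls. At an unadjusted p under 0.05 in limma, 3 of 8 were higher and 0 lower, where 5.75% and 4.09% of all probe sets were. Among all probe sets at levels of 4 to 7, these shares were 10.9% and 2.28%. The differences of the 8 markers ran from 0.023 (Myh7) to 0.19 (Tnnt3), and Ckm was at 7.99 and 7.95. The part of those markers in the sodium channel values was not tested. Scn7a, which encodes a sodium sensor rather than a channel for action potentials, averaged 5.19 ± 0.14 in FS rats and 5.19 ± 0.23 in controls (SD, n = 5 each). Its difference of 0.0090 turned negative after quantile normalization (-0.015) and, most of all, without control replicate 3 (-0.050).

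The sodium beta subunits differed little between the groups. Their median difference was -0.012, and -0.022 without FS replicate 2. Scn3b, which binds the alpha subunit without a covalent link, averaged 11.78 ± 0.033 in FS rats and 11.76 ± 0.034 in controls (SD, n = 5 each), the tightest of all members, with a within-group SD that exceeded that of 2.52% of the tested probe sets only. Scn2b, which links to the alpha subunit by a disulfide bond, averaged 10.13 ± 0.074 and 10.17 ± 0.12 (SD, n = 5 each). The difference was 0.015 for Scn3b (adjusted p = 0.905 in limma) and -0.038 for Scn2b (adjusted p = 0.853). Scn4b, the beta subunit outside the rule and a gene of striatal medium spiny neurons, was far more variable, at 8.45 ± 0.23 in FS rats and 8.53 ± 0.45 in controls (SD, n = 5 each).

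The calcium channel alpha1 subunits lay slightly below their controls in most cases, and FS replicate 2 was the lowest of all rats for 6 of the 9. All but Cacna1f lie at levels of 7 to 9 or above 9, where 44.4% and 38.2% of all probe sets had a positive difference. Of the 6 high-voltage genes, 5 had a negative difference, with a median of -0.050, and of the 3 T-type genes 3 did, with a median of -0.066, but Cacna1b and Cacna1h turned positive after quantile normalization (0.0041 and 0.016). Without FS replicate 2, whose choroid plexus and meningeal markers were high, these medians were -0.017 and -0.048, with Cacna1b positive, and without control replicate 3 the high-voltage median was -0.028. The part of those markers in the difference was not tested.

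Among the channels of transmitter release, Cacna1a, the pore of P/Q-type channels, was at 10.42, 10.36, 10.64, 10.51 and 10.51 in FS rats, against 10.52, 10.50, 10.62, 10.52 and 10.49 in controls. The highest rat was FS replicate 3 and the lowest FS replicate 2. The difference was -0.040 (standard error 0.052, adjusted p = 0.826 in limma), -0.0080 without FS replicate 2 and -0.078 without FS replicate 3. Cacna1b, the N-type pore, was at 9.64, 9.52, 9.69, 9.62 and 9.61 in FS rats, against 9.58, 9.59, 9.74, 9.66 and 9.59 in controls. The groups overlapped over most of their range, with a difference of -0.014 (adjusted p = 0.935 in limma), and 0.0093 without FS replicate 2. Cacna1e, the R-type pore found in dendrites and terminals, was at 10.25, 10.04, 10.18, 10.20 and 10.22 in FS rats, against 10.22, 10.27, 10.32, 10.23 and 10.15 in controls. The gap came mostly from FS replicate 2. The difference was -0.059 (standard error 0.047, adjusted p = 0.690 in limma), -0.025 without that rat and -0.080 without control replicate 5.

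The L-type pores couple calcium entry to gene expression in neurons. Cacna1c was at 8.62, 8.44, 8.63, 8.62 and 8.50 in FS rats, against 8.61, 8.67, 8.77, 8.73 and 8.57 in controls. In 3 controls the level was above every FS rat, and the other controls lay inside the FS range. The difference was -0.11 (standard error 0.053, 95% interval -0.22 to 0.0047, adjusted p = 0.517 in limma), -0.079 without FS replicate 2 and -0.13 without control replicate 5. Cacna1d, which opens at less depolarized potentials than Cacna1c, was at 9.44, 9.33, 9.40, 9.42 and 9.45 in FS rats, against 9.43, 9.45, 9.58, 9.49 and 9.44 in controls. The groups overlapped narrowly, and the difference was -0.071 (standard error 0.040, adjusted p = 0.571 in limma, exact permutation p = 0.0556, two-sided). Cacna1f, the L-type pore of the retina, had the opposite sign, with 6.63 ± 0.039 in FS rats and 6.56 ± 0.083 in controls (SD, n = 5 each; difference 0.071, adjusted p = 0.607 in limma).

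T-type channels open near the resting potential and support burst firing. Cacna1g was at 8.79, 8.81, 8.91, 8.92 and 8.99 in FS rats, against 8.99, 8.90, 9.002, 8.99 and 9.08 in controls. FS replicates 1 and 2 lay below every control, and the other 3 FS rats inside the control range. The difference was -0.11 (standard error 0.048, 95% interval -0.21 to -0.0052, unadjusted p = 0.0411 and adjusted p = 0.499 in limma, exact permutation p = 0.0714, two-sided). Cacna1i was at 9.67, 9.58, 9.73, 9.61 and 9.64 in FS rats, against 9.77, 9.64, 9.74, 9.74 and 9.67 in controls. These values overlapped as well, with a difference of -0.066 (standard error 0.042, adjusted p = 0.612 in limma). Cacna1h was at 8.72, 8.61, 8.66, 8.64 and 8.54 in FS rats, against 8.62, 8.67, 8.64, 8.65 and 8.66 in controls. Its controls lay inside the FS range, and the difference was -0.012 (adjusted p = 0.939 in limma), and -0.0063 without FS replicate 2.

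**Figure D2:**
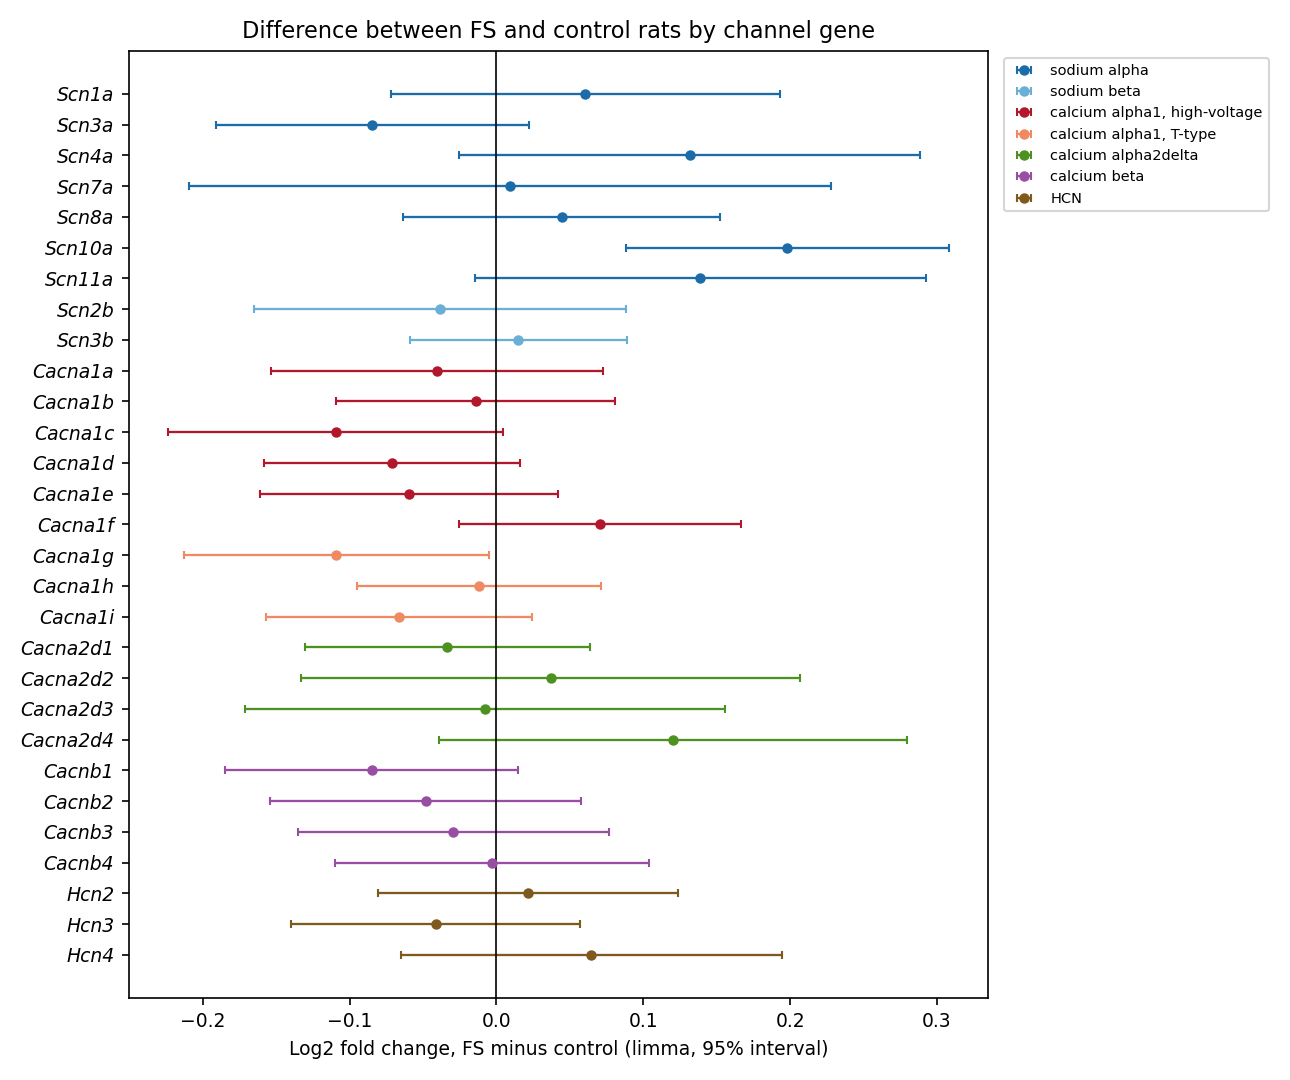
Difference between FS and control rats for each channel gene (horizontal axis, log2 scale, limma) with its 95% interval, coloured by subfamily. The interval leaves out 0 for Scn10a (0.088 to 0.31) and Cacna1g (-0.21 to -0.0052), and 0 of 29 genes passed after adjustment.

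The alpha2delta subunits bring calcium channels to the membrane, and those of Cacna2d1 and Cacna2d2 bind gabapentin. The median difference of the 4 genes was 0.015, and -0.0063 without FS replicate 2. Cacna2d1 was at 10.57, 10.34, 10.45, 10.45 and 10.44 in FS rats, against 10.48, 10.41, 10.52, 10.51 and 10.51 in controls. The lowest rat was again FS replicate 2 and the highest FS replicate 1. The difference was -0.033 (standard error 0.045, adjusted p = 0.833 in limma), -0.0063 without FS replicate 2 and -0.063 without FS replicate 1. Cacna2d2 averaged 8.68 ± 0.13 in FS rats and 8.64 ± 0.15 in controls (SD, n = 5 each), and Cacna2d3 averaged 10.41 ± 0.052 and 10.42 ± 0.18. Taken over both groups, the within-group SD was above that of 89.2% and 86.9% of the tested probe sets. For Cacna2d3 the wide spread was in the controls only, where replicate 5 was at 10.11, against 10.40 to 10.55 in the others. The differences of Cacna2d2 and Cacna2d3 were 0.037 and -0.0078. Each changed sign when single rats were left out, Cacna2d2 to -0.0064 without FS replicate 2. Cacna2d4, known from photoreceptors, was at 6.56, 6.59, 6.49, 6.79 and 6.54 in FS rats, against 6.39, 6.46, 6.44, 6.36 and 6.73 in controls. Of the controls, 4 lay below every FS rat, and control replicate 5 above 4 of the 5. The difference was 0.12 (standard error 0.073, adjusted p = 0.599 in limma), and 0.18 without that control.

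The 4 calcium beta subunits, which carry the pore subunit to the membrane and tune its gating, had negative differences with a median of -0.039, although that of Cacnb4 was positive with arrays centred on their median (0.0071) and those of Cacnb3 and Cacnb4 without FS replicate 2, where the median was -0.023. Without control replicate 4 it was -0.018. All 4 genes lie above a level of 9, where 38.2% of all probe sets had a positive difference. Cacnb1 was at 10.71, 10.61, 10.66, 10.63 and 10.65 in FS rats, against 10.76, 10.81, 10.70, 10.81 and 10.59 in controls. In 3 controls it exceeded every FS rat, while control replicate 5 was the lowest of all 10 rats. The difference was -0.085 (standard error 0.046, adjusted p = 0.553 in limma), and -0.12 without control replicate 5. Cacnb4, the form whose loss gives the ataxic lethargic mouse, was at 11.18, 11.01, 11.12, 11.11 and 11.13 in FS rats, against 11.10, 11.12, 11.11, 11.24 and 10.99 in controls. The group means were nearly equal, at a difference of -0.0031 (standard error 0.049, 95% interval -0.11 to 0.10). Cacnb2 averaged 9.44 ± 0.073 in FS rats and 9.49 ± 0.080 in controls, and Cacnb3 10.30 ± 0.084 and 10.33 ± 0.068 (SD, n = 5 each), with adjusted p-values of 0.767 and 0.868 in limma.

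The rule found 3 HCN channel genes, which lay near their control levels. Hcn2 was at 9.28, 9.29, 9.38, 9.32 and 9.34 in FS rats, against 9.38, 9.31, 9.27, 9.39 and 9.16 in controls. Control replicate 5 was the lowest rat, and the difference was 0.021 (standard error 0.047, adjusted p = 0.902 in limma), which turned to -0.014 without it. Hcn3 averaged 8.04 ± 0.054 in FS rats and 8.08 ± 0.079 in controls, and Hcn4, the main pacemaker channel of the sinoatrial node, 7.55 ± 0.060 and 7.49 ± 0.13 (SD, n = 5 each). The difference was -0.041 for Hcn3 (adjusted p = 0.791 in limma) and 0.065 for Hcn4 (adjusted p = 0.744).

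In the deposited values, the median difference was positive at low levels and negative at higher ones, over all probe sets and over the channel genes. The 2 sets differed in size and after a further quantile normalization. In 3 bands of mean level, chosen after the values were seen, the median difference over all probe sets was 0.035 at levels of 4 to 7 (6064 probe sets), -0.0099 at 7 to 9 (7245) and -0.014 above 9 (4995). In the lowest band 10.9% of all probe sets were higher at an unadjusted p under 0.05 and 2.28% lower, and above 9 these shares were 1.34% and 4.26%. A positive difference was found for 67.25% of all probe sets of the lowest band. Its 6 channel genes (Scn4a, Scn7a, Scn10a, Scn11a, Cacna1f and Cacna2d4) all had one, with a median of 0.13. Scn7a was negative after quantile normalization and when any of 3 single rats was left out, among them FS replicate 2 (-0.043) and control replicate 3 (-0.050). Leaving out each rat in turn gave the median of these 6 genes between 0.085 (without control replicate 3) and 0.18 (without control replicate 5). Above 9, 38.2% of all probe sets had a positive difference, as did 4 of 17 channel genes, whose median was -0.033. Without FS replicate 2, 7 of the 17 were positive and the median was -0.0080, beside -0.0075 over all probe sets of that band. Over all single rats left out, it ran from -0.050 (without control replicate 5) to that value. After a further quantile normalization of the tested probe sets, the 3 medians over all probe sets were 0.0019, 0.0012 and -0.0012, and those of the channel genes 0.081, -0.0052 and -0.021. What sets the level-dependent offset between the groups was not tested.

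**Figure D3:**
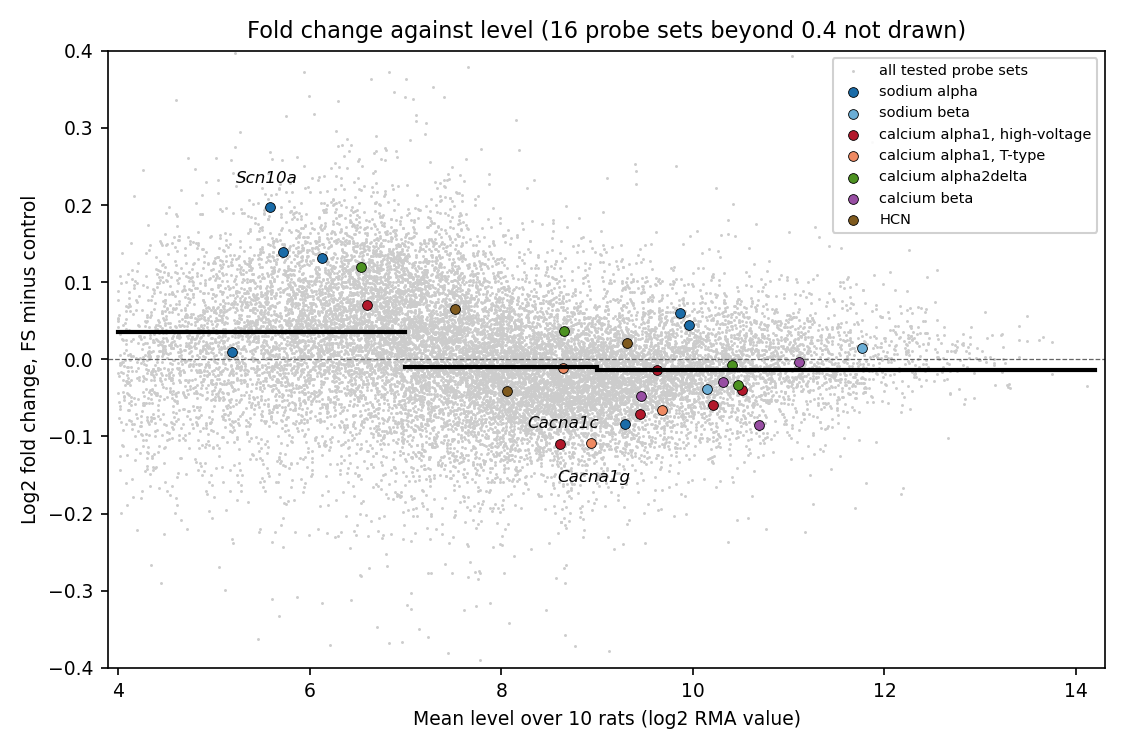
Difference between FS and control rats (vertical axis, log2 scale) against the mean level over 10 rats (horizontal axis, log2 RMA value) for all tested probe sets (grey, 16 beyond 0.4 not drawn) and the channel genes (coloured by subfamily). Black lines are the medians of all probe sets at levels of 4 to 7, 7 to 9 and above 9 (0.035, -0.0099 and -0.014).

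Rat-to-rat variation of the channel genes was about that of other genes. The within-group SD ran from 0.034 for Scn3b to 0.19 for Scn7a, with a median of 0.077, beside 0.084 over all tested probe sets. FS replicate 2 was the lowest of the 10 rats for 9 of the 29 genes and control replicate 5 for 8, while control replicate 4 was the highest for 8. With the group means removed, the median correlation between 2 channel genes over the 10 rats was 0.105 (406 pairs), 0.139 within a subfamily (55 pairs) and 0.0056 over all pairs of tested probe sets. The pairs share arrays and normalization, and these correlations are a description. The highest were those of Scn8a with Cacna1c (0.939) and with Cacna1b (0.911) and that of Cacna2d3 with Cacnb1 (0.902), and the lowest was that of Scn10a with Scn3b (-0.914).

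**Figure D4:**
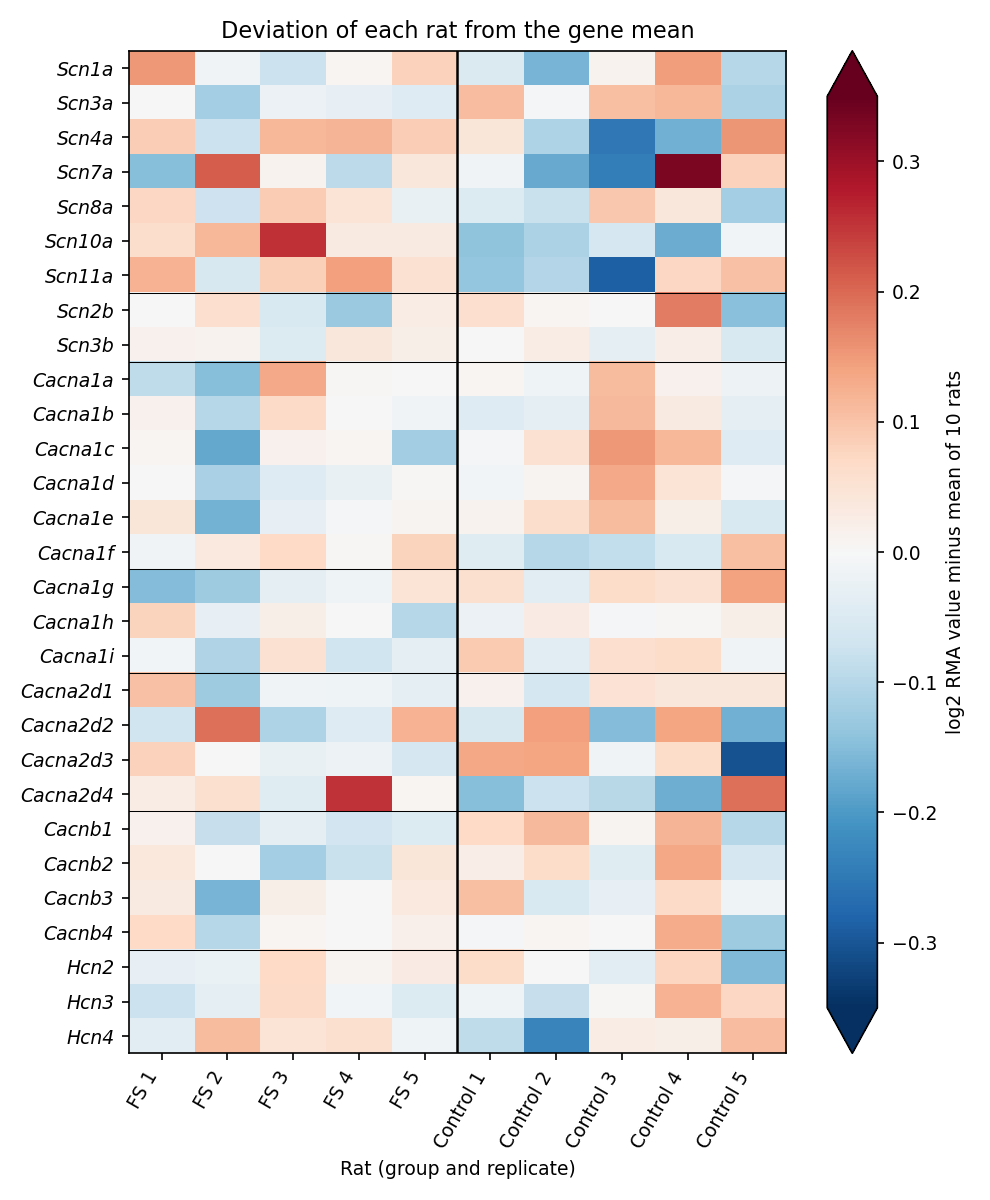
Deviation of each rat (columns, FS rats left of the line and controls right of it) from the mean of 10 rats (log2 scale, red above and blue below) for each channel gene (rows, lines between subfamilies). FS replicate 2 is lowest for 6 of 9 calcium alpha1 genes. Control replicate 5 is lowest for 8 genes, namely Scn8a, Scn2b, Scn3b, Cacna2d2, Cacna2d3, Cacnb1, Cacnb4 and Hcn2.

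Since the striatal and the oligodendrocyte marker means differed between rats, each channel gene was set against both over the 10 rats, in 58 relations. With permutation tests and Benjamini–Hochberg adjustment over all of these, 0 of 29 genes passed for the striatal mean and 0 for the oligodendrocyte mean. At an unadjusted p under 0.05 there were 7 and 2. The share of all tested probe sets past that threshold was not computed, so these counts cannot be called particular to the channel genes. The highest coefficients with the striatal mean were those of Cacnb2 (Pearson r = 0.805, permutation p = 0.00545, adjusted p = 0.158, Spearman rho = 0.818, permutation p = 0.00599, adjusted p = 0.174), Cacna2d3 (r = 0.773, permutation p = 0.00195, adjusted p = 0.113, rho = 0.879, permutation p = 0.0015, adjusted p = 0.087) and Scn3b (r = 0.757, permutation p = 0.0126, adjusted p = 0.244, rho = 0.576, permutation p = 0.0889, adjusted p = 0.482). With FS replicate 3 and control replicate 5 left out, the rats farthest from the median of that mean, r was 0.669, 0.822 and 0.431. With the group means removed it was 0.803, 0.781 and 0.837. Cacna2d3 passed when FS replicate 3 alone was left out (r = 0.850, adjusted p = 0.0372, exact permutation test).

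The lowest coefficients with the striatal mean were those of Hcn4 (r = -0.652, permutation p = 0.0322, adjusted p = 0.279, rho = -0.709, permutation p = 0.0269), Cacna1f (r = -0.580, permutation p = 0.0827, adjusted p = 0.378, rho = -0.636, permutation p = 0.0545) and Scn10a (r = -0.552, permutation p = 0.0976, adjusted p = 0.378, rho = -0.564, permutation p = 0.0965). Without the 2 farthest rats they were -0.578, -0.224 and -0.366. With the oligodendrocyte mean, r was highest for Scn3b (0.635, permutation p = 0.0443, adjusted p = 0.285, rho = 0.648, permutation p = 0.0497), Cacna2d2 (0.615, permutation p = 0.0527, adjusted p = 0.305, rho = 0.624, permutation p = 0.0624) and Cacnb2 (0.546, permutation p = 0.103, adjusted p = 0.378, rho = 0.479, permutation p = 0.167). It was lowest for Cacna1b (-0.692, permutation p = 0.0284, adjusted p = 0.279, rho = -0.394, permutation p = 0.261), Cacna1a (-0.554, permutation p = 0.101, adjusted p = 0.378, rho = -0.200, permutation p = 0.585) and Scn8a (-0.537, permutation p = 0.104, adjusted p = 0.378, rho = -0.515, permutation p = 0.130). Without FS replicate 3 and control replicate 3, the positive coefficients were 0.326, 0.423 and 0.393, and the negative ones 0.064, 0.294 and -0.037, so the negative relations rest on those 2 rats. With a marker mean as a covariate, 0 channel genes passed an adjusted p of 0.05 in limma.

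Partners of these channels were taken from a list of 35 genes, of which 33 were tested. It holds the Cacng genes, the intracellular fibroblast growth factors that bind sodium channels, the anchors of the axon initial segment, Pex5l, which traffics HCN channels, active zone scaffolds, calmodulins and the small GTPases that inhibit calcium channels. In limma 0 of 33 passed an adjusted p of 0.05. At an unadjusted p under 0.05, 2 were higher, where 5.75% of all probe sets were, and 1 lower, where 4.09% were. These counts at the unadjusted threshold are near the background. The signs were less even, with 8 differences positive and 25 negative, where 9203 of all 18304 probe sets were positive. Their median was -0.042, beside 0.00044 over all probe sets and -0.014 over those above a level of 9. What sets this split was not tested. Cacng6, a relative of the gamma subunit of muscle calcium channels, was at 6.74, 6.65, 6.89, 6.77 and 6.88 in FS rats, against 6.66, 6.37, 6.59, 6.48 and 6.61 in controls (difference 0.24, adjusted p = 0.350 in limma). Rem1, a GTPase that inhibits calcium channels, averaged 6.78 ± 0.11 in FS rats and 6.58 ± 0.15 in controls (SD, n = 5 each; difference 0.19, adjusted p = 0.444 in limma), and both of these signals lie between 4 and 7. Cacng4, a transmembrane regulator of AMPA receptors, was at 9.23, 9.25, 9.21, 9.20 and 9.27 in FS rats, against 9.48, 9.35, 9.26, 9.33 and 9.35 in controls. Only control replicate 3 lay inside the FS range, and the difference was -0.12 (standard error 0.042, adjusted p = 0.426 in limma). Ank3, the ankyrin that holds sodium channels at the axon initial segment, had a difference of -0.042 and Fgf14, which binds their C-terminal tail, one of 0.069 (adjusted p = 0.743 and 0.624), and these last 2 genes were named after their values were seen.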

How the data were processed

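The PFC of 5 FS rats and 5 controls was measured with 1 Affymetrix Rat Gene array per rat. The authors read and normalized the arrays with the rma function of oligo 1.58.0, and the values they deposited are log2 signals of single arrays, with replicates not pooled. No source used here names a genome build for the array design. Quantile normalization within RMA forces the arrays to a like distribution, which can hide changes shared by most genes. Names came from the platform annotation, in which 18644 probe sets have 1 symbol, 962 several and 9608 none. Of the first, 18460 were found by gene identifier among the RefSeq genes of GRCr8, with 0 symbols changed.

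The groups were set against each other in limma 3.58.1 (R 4.3.3). This fit held 18304 probe sets, those with a mean above 4 and 1 symbol, and Benjamini–Hochberg adjustment ran over all of them. Exact permutation tests used the 252 ways to choose 5 of 10 rats, and correlations 100000 resamples (Python 3.11.15, numpy 2.4.6). The members and lists were chosen with earlier results of these data known. Values in each rat were given for the 4 members with the lowest p on either side, for members whose groups did not overlap and for a list of brain channel genes, and correlations for the 3 highest and 3 lowest of each marker mean. The functions were tested on simulated data. After removal of the group means, same-numbered rats correlated over 0.1 in 2 of 5 pairs, so a shared number was not treated as a pair. Alternatives changed the filter, the normalization, array weights, the trend of the variance, the choice of probe set, covariates and the rats included.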

Additional observations from a re-analysis of the deposited data

Results flagged for a closer look

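In 5 of the 64 groups of 5 rats examined (29 channel genes and 3 partners), 1 rat stood far from the other 4, at a gap above 0.71 of the group's range. Chance flags about 5% of groups. Scn4a was at 6.06 in FS replicate 2, against 6.22 to 6.25 in the other FS rats. Cacnb3 was at 10.15 in the same rat, against 10.31 to 10.35. Control replicate 5 had 6.73 for Cacna2d4, against 6.36 to 6.46 in the other controls, and 6.70 for Cacna1f, against 6.49 to 6.55. Cacna1a was at 10.62 in control replicate 3, against 10.49 to 10.52 in the other controls. FS replicate 2 is also the rat with the high choroid plexus markers.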

How the results depend on the processing

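In limma 0 of 29 channel genes and 0 of 33 partners passed an adjusted p of 0.05 under every alternative tried. The counts at an unadjusted p under 0.05, 1 higher and 1 lower, varied. With a mean above 6, 0 of 26 genes were higher (5.61% of all probe sets). With array weights 5 were higher and 3 lower (7.49% and 4.96% of all), and with the oligodendrocyte marker mean as a covariate 2 and 2 (5.35% and 3.99%). The count of lower genes was 0 after quantile normalization, with arrays centred on their median and in exact permutation tests (4.19%, 3.14% and 4.29% of all). With the replicate number as a block it was 2 (4.22% of all), and the numbers were not taken as pairs. Leaving out each rat in turn gave 1 to 5 higher and 0 to 3 lower genes, and 0 to 1 genes correlated with the striatal marker mean.

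The sign changed only for genes near 0: after quantile normalization for Scn7a (-0.015), Cacna1b (0.0041) and Cacna1h (0.016), with centred arrays for Cacna2d3 (0.0023) and Cacnb4 (0.0071), and with the striatal marker mean as a covariate for the same 2 genes (0.027 and 0.0064). Leaving out each rat in turn gave -0.050 to 0.092 for Scn7a, -0.080 to 0.0016 for Scn2b, -0.032 to 0.012 for Cacna1b, -0.032 to 0.012 for Cacna1h, -0.0064 to 0.077 for Cacna2d2, -0.085 to 0.026 for Cacna2d3, -0.046 to 0.0078 for Cacnb3, -0.034 to 0.029 for Cacnb4 and -0.014 to 0.043 for Hcn2. The cause of these shifts was not tested. With 5 rats in each group, the widest 95% interval among the channel genes in limma, that of Scn7a, ran from -0.21 to 0.23. Small differences may not be detectable at this number of arrays.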
